A study of Mus musculus with 7 samples.

Results

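In the leukocytes of the mouse heart, 7 genes of the Siglec family were followed: Siglecf, Siglece, Siglecg, Siglech, Siglec1, Cd22 and Cd33. They were taken by symbol, and each of the 7 was present as a gene row in all 7 count matrices, out of 31537 gene identifiers found in any matrix. Siglecs are cell-surface lectins of leukocytes that bind sialic acids, the acidic sugars that end many glycan chains. Most carry inhibitory tyrosine motifs in their cytoplasmic tail that recruit phosphatases such as SHP-1 (encoded by Ptpn6), so binding to sialylated neighbours damps activation. Siglec-H has no such motif and signals through the adaptor DAP12 (Tyrobp), and sialoadhesin (Siglec1) has a long adhesive ectodomain without an inhibitory tail.

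Leukocytes were profiled by droplet single-cell RNA sequencing, in which each transcript is counted as a unique molecular identifier (UMI). In the first experiment, 5 libraries of CD45+ heart cells left unlabelled by an intravenous CD45.2 antibody came from male C57BL6/J mice at steady state and on days 1, 3, 5 and 7 after infarction by a permanent ligature on the left descendant coronary artery, with 5, 5, 5, 5 and 3 mice pooled per library and neutrophils reduced before the sort. In the second, CD11b+ cells of such hearts on days 1, 3 and 5 (5, 5 and 3 male mice), likewise negative for the intravenous antibody, carried hashtag antibodies and were run as 1 pool. In the third, Ter119-B220-NK1.1-CD11b+ cells of blood and heart came from C57BL6/J mice of 8 to 10 weeks with no surgery (3 mice), 1 or 3 days after sham surgery (3 mice each) or 1 or 3 days after infarction (5 mice each). The heart cells came from the infarcted mice. Ly6G+ and Ly6G- cells were mixed at about 1 to 1, and the 7 hashtags could not be tied to those conditions, so they are given by number and compared by no test. No mutant allele is named for any group, and sex is not given for the third experiment.

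The cells used numbered 522 to 1793 per CD45+ library, 4282 in the heart pool and 9999 in the blood and heart pool, and the total per CD45+ library ran from 3611089 to 11511763 UMIs. Classes were assigned to clusters by marker genes that included none of the 7 members, and the members were left out of the genes used for clustering. The steady-state library held only 7 neutrophils, while the CD45+ libraries of days 1, 3, 5 and 7 held 216, 135, 40 and 28 and the heart pool 254, 993 and 224. B cells reached 30 cells in the day 7 library alone (963 cells). Different clusters filled 1 class on different days. In the CD45+ libraries the day 1 neutrophils were almost all from a cluster led by Ngp, Retnlg and Lcn2, and the later ones from a cluster led by G0s2, Il1r2 and Irg1. The monocytes/macrophages came from a C1qa- and Folr2-led cluster at steady state, a Saa3- and Arg1-led cluster on day 1, a Plac8-, Chil3- and Ly6c2-led cluster on day 3 and a Ms4a7-, Spp1-, Gpnmb- and Trem2-led cluster on days 5 and 7. Each day of an experiment was 1 pooled library or hashtag, so the p-values below do not measure the spread between mice. In the fits by day they rest on how far the day changes disagreed between the 2 experiments, after the gap between the experiments was taken out. In the class fits they rest on how far the class differences disagreed between the day libraries, or between the days of both experiments where both were used. In each fit edgeR also drew a gene's spread toward that of the other genes.

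On mouse chromosome 7 (build GRCm38), 4 members lie close together: Siglecf (ENSMUSG00000039013) at 43351341 to 43359531, Siglecg (ENSMUSG00000030468) at 43408204 to 43418358, Cd33 (ENSMUSG00000004609) at 43524216 to 43544428 and Siglece (ENSMUSG00000030474) at 43651070 to 43660161, a stretch of 308.821 kb. Cd22 (ENSMUSG00000030577) at 30865402 to 30880342 and Siglech (ENSMUSG00000051504) at 55768178 to 55778925 are farther away on chromosome 7, and Siglec1 (ENSMUSG00000027322) is on chromosome 2 at 131069220 to 131086765. Siglecf and Cd33 are printed here because they were the members that moved in opposite directions in neutrophils, described below, while sharing the longest identical run among the members' upstream sequences. The lines give the 250 bases before the RefSeq start of each gene, 5′ to 3′ on the gene's own strand, from the RefSeq promoter table of build GRCm38.p6. The RefSeq start of Cd33 lies inside the gene span given above, so its window is also inside that span. Capitals mark the shared run.
Siglecf, chr7:43351091-43351340, plus strand: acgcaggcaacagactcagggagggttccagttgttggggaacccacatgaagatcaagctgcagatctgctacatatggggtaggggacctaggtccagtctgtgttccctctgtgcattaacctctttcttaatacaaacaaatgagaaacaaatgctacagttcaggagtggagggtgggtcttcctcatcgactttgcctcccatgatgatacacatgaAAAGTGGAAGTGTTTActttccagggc
Cd33, chr7:43533172-43533421, minus strand: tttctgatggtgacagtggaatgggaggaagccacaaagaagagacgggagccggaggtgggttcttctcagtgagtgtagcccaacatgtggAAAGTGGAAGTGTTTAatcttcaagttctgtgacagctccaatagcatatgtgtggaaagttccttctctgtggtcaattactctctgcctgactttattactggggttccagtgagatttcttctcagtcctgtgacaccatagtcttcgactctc
The run of 16 bases stood 27 to 12 bases before the Siglecf start and 157 to 142 bases before the Cd33 start. The run was picked from these 2 windows, so its presence in both was fixed. On either strand it was found in 2 of 32851 such promoter windows (0.00609%), these 2. How long a run is shared by pairs of genes outside the family was not measured, so the share is a description only. The longest run shared by any other pair of members was 10 bases. The 6 letters GGAAGT inside it, read as GGAAGT or ACTTCC, were in 6485 windows (19.7%), so they alone set no gene apart. A promoter entry was held for 6 of the 7 members, and not for Siglec1.

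The members differed in the class where their level was highest, as the plot of levels by class shows. Over all 5 CD45+ libraries, Siglecf, Siglece and Cd33 were highest in neutrophils, Siglecg and Cd22 in B cells, Siglec1 in monocytes/macrophages and Siglech in dendritic cells, and above all in 10 plasmacytoid dendritic cells. Levels are given in CPM, that is a gene's share of all UMIs of the class, scaled in the usual way for that unit. They are compared across classes within a gene, not between genes.

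**Figure D1:**
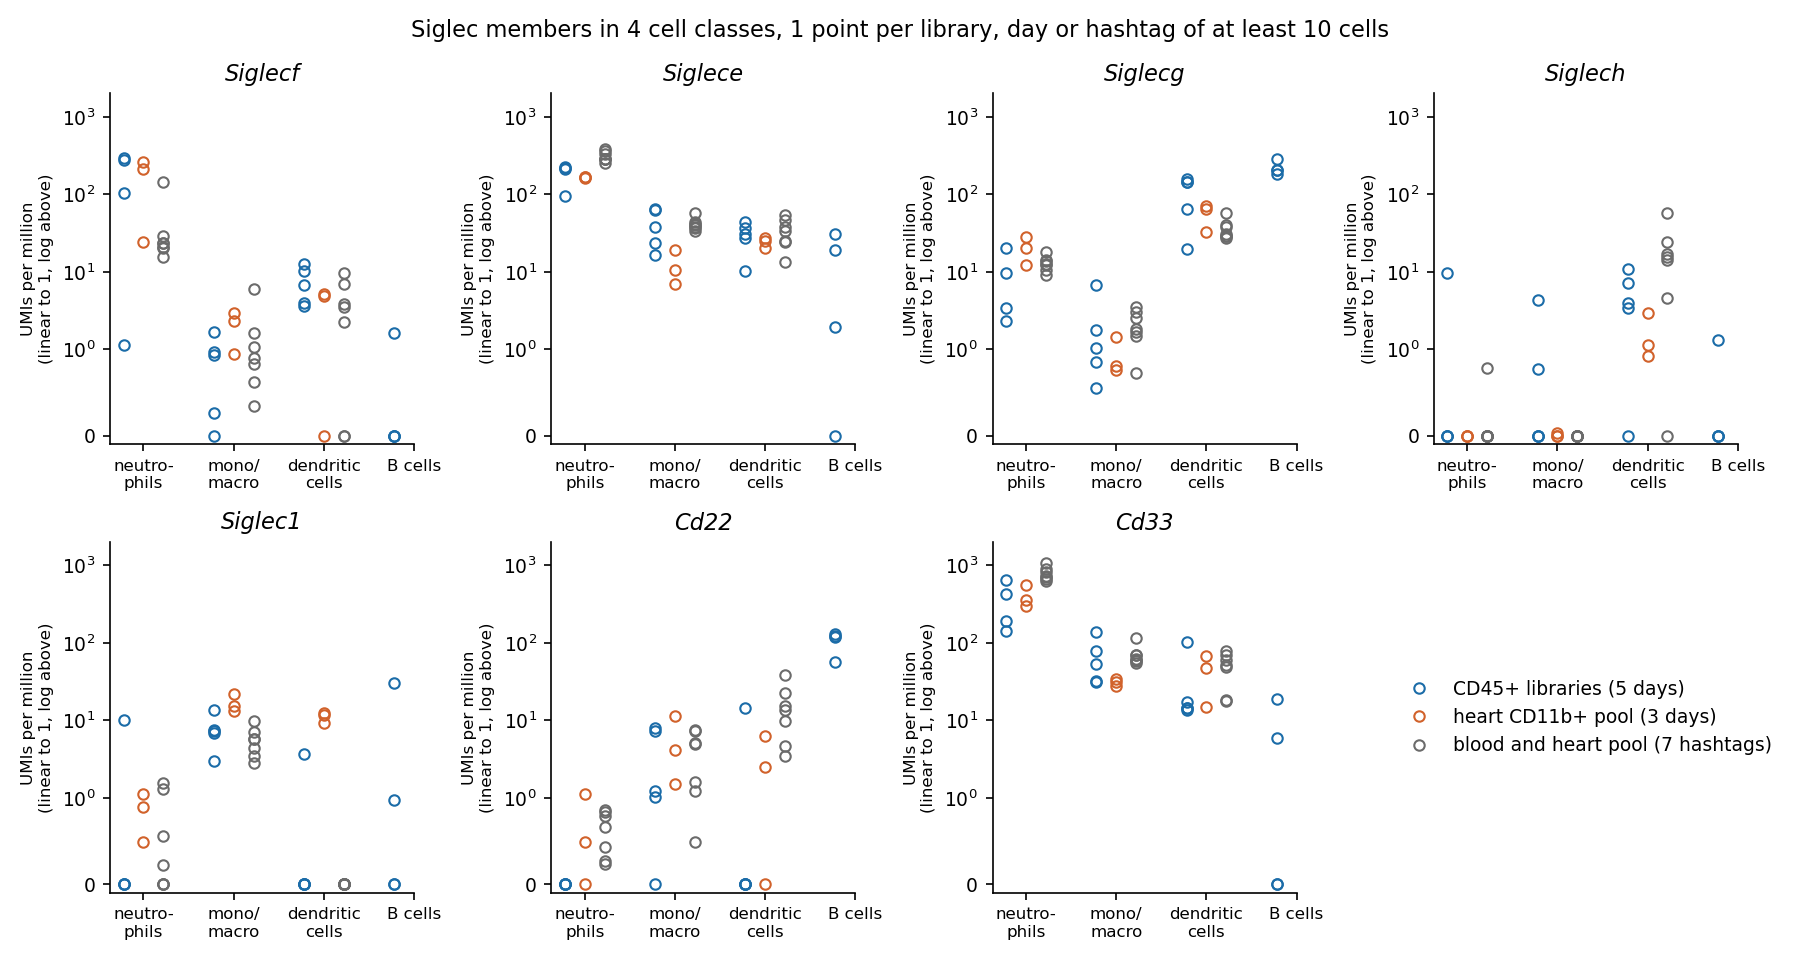
Level of each member (vertical axis, CPM, linear up to 1 and logarithmic above) in neutrophils, monocytes/macrophages, B cells and dendritic cells. Each point is 1 library, day or hashtag with at least 10 cells of the class, coloured by experiment. Siglecf, Siglece and Cd33 sit highest in neutrophils and Siglecg and Cd22 in B cells. Siglecf is near the floor in the neutrophils of day 1 of the CD45+ libraries.

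In neutrophils Siglecf, Cd33 and Siglece stood out. Siglecf, the inhibitory receptor best known from eosinophils, had 70.3 CPM in CD45+ neutrophils against 0.944 in monocytes/macrophages, 8.41 in dendritic cells and 1.54 in B cells. Cd33, a receptor of myeloid cells, had 519 CPM in neutrophils, 53.3 in monocytes/macrophages, 28.2 in dendritic cells and 5.85 in B cells. Siglece, which carries inhibitory motifs and is known from neutrophils, had 212 CPM in neutrophils, 35.2 in monocytes/macrophages, 31.8 in dendritic cells and 2.46 in B cells. These are levels in 426 neutrophils of a median 2986 UMIs and 2699 monocytes/macrophages of a median 9014. Siglecf UMIs were found in 13.4% of those neutrophils and in 0.491% of 1018 B cells of similar depth (median 2756.5 UMIs), a class that should lack the gene. At least 1 UMI of 2 or more members was seen in 42.0% of the CD45+ neutrophils and in 51.5% of those of the heart pool.

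The class differences were tested on UMI sums per class in the CD45+ libraries (sums of at least 30 cells, edgeR's quasi-likelihood test, adjusted over all genes, threshold 0.05). Neutrophils exceeded monocytes/macrophages by 7.35 log2 for Siglecf (SE 0.51, edgeR adjusted p = 1.1e-11), 3.23 log2 for Cd33 (SE 0.34) and 2.68 log2 for Siglece (SE 0.31), 3 of the 7 members called, where 31.4% of all 8641 genes were called. The calls are therefore read by their size. The neutrophil sums of that fit were those of days 1, 3 and 5. On day 1 Siglecf was near the floor in neutrophils as well as in monocytes/macrophages (0 UMIs), so its difference rests on days 3 and 5. Over the 12 sums of both experiments, monocytes/macrophages relative to neutrophils stood at −3.69 log2 for Cd33 (SE 0.29, edgeR adjusted p = 4.46e-08) and at −3.57 log2 for Siglece (SE 0.30, edgeR adjusted p = 1.01e-07), where 56.6% of 8524 genes were called. The filter on low counts dropped the other 5 members from that fit. With no filter all 7 were tested and 6 were called, where 37.0% of genes were. Siglecf then stood at −6.64 log2 and Siglecg at −4.05 log2, below neutrophils, while Siglec1 stood at 4.36 log2 and Cd22 at 3.17 log2 above them.

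The surrounding sialic acid machinery was compared between the same classes, and its counts stand beside the 56.6% of all genes called, so shares near that say nothing particular about a list. Among 12 signalling partners of Siglecs, 11 were tested and 7 were lower in monocytes/macrophages, led by Hcst (−2.43 log2), Tyrobp (−1.35), Socs3 (−1.21) and Ptpn6 (−1.11), the adaptors DAP10 and DAP12, a cytokine signalling suppressor and the phosphatase SHP-1. Of 8 protein ligands and carriers of sialic acid, 6 were lower, led by Cd24a (−4.04), Icam1 (−3.27), Selplg (−2.37) and Ptprc (−1.67), and none was higher. The sialyltransferases, which attach sialic acid, went both ways among 9 tested: 3 were higher in monocytes/macrophages, St6gal1 (3.08) and St6galnac6 (2.26) among them, and 4 were lower, St3gal6 (−4.51) and St3gal4 (−1.90) among them. Of 5 tested genes of sialic acid synthesis and transport, 3 were higher, namely Npl (3.85), Slc17a5 (1.78) and Nans (1.25). Npl, the largest of these, encodes a lyase that breaks down free sialic acid. The medians were −0.876 for the signalling partners, −1.61 for the ligands, −0.126 for the sialyltransferases and 1.25 for synthesis and transport. The median over all genes was 0.131.

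Across the days after infarction, Siglecf and Cd33 moved in opposite directions in neutrophils. Siglecf was counted 1 time in the CD45+ neutrophils of day 1 (1.15 CPM, exact Poisson 95% interval 0.0291 to 6.41, covering counting error only). It was counted 44 times on day 3 (104 CPM), 31 times on day 5 (298 CPM, 202 to 423) and 27 times on day 7 (277 CPM). The heart pool gave 27 UMIs on day 1 (24.0 CPM, 15.8 to 35.0), 863 on day 3 (213 CPM) and 238 on day 5 (265 CPM, 233 to 301). In both experiments day 1 was the lowest and days 3 and 5 did not overlap it. The 7 neutrophils of steady state held 3 Siglecf UMIs, too few to place that level. Cd33 was counted 562 times on day 1 (647 CPM), 182 on day 3 (430 CPM), 20 on day 5 (192 CPM) and 14 on day 7 (143 CPM) in the CD45+ libraries. In the heart pool it stood at 562, 358 and 300 CPM. Day 1 was the highest in each experiment and day 5 the lowest of the 3 days.

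**Figure D2:**
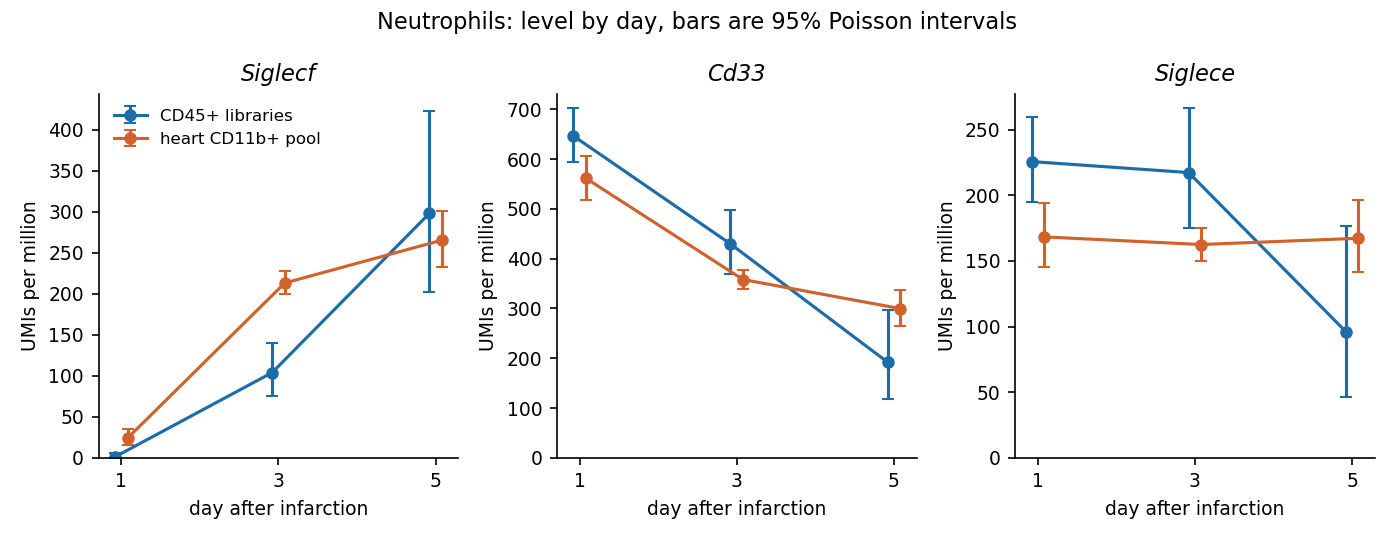
Siglecf, Cd33 and Siglece in neutrophils of the CD45+ libraries and of the heart CD11b+ pool, as CPM (vertical axis) by day after infarction (horizontal axis), with 95% Poisson intervals as bars. Siglecf starts at 1.15 and 24.0 on day 1 and lies above 100 later, while Cd33 is 647 and 562 on day 1 and 192 and 300 on day 5, the last day plotted.

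In the fit with the experiment as a block, Siglecf rose by 3.12 log2 by day 3 (SE 0.58, edgeR adjusted p = 0.00872) and by 3.70 log2 by day 5 (SE 0.60, edgeR adjusted p = 0.00224), upward in each of the 2 experiments. From day 3 to day 5 it differed by 0.58 log2 (SE 0.51, edgeR adjusted p = 1.00), and without the CD45+ day 5 sum by −0.24 log2. Cd33 fell by 2.22 log2 from day 1 to day 5 (SE 0.44, edgeR adjusted p = 0.00667), downward in each of the 2 experiments, and stood at −1.29 log2 by day 3 (edgeR adjusted p = 0.109). In neutrophils 4 members passed the low-count filter. Of these 1 was called on day 3, where 2.53% of 6163 genes were, 2 on day 5, where 6.94% were, and 0 between days 3 and 5, where 0.0% were (120 genes at an unadjusted p under 0.05, 1 call by DESeq2). The Cd33 call was lost without the CD45+ neutrophils of day 5 (−1.72 log2, edgeR adjusted p = 0.209). Without the experiment block none of these calls held (edgeR adjusted p = 0.398 for Siglecf and Cd33 on day 5).

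How the sums were scaled mattered for size. With scaling to total UMIs alone the median over all genes moved from −0.03 to 0.89 log2 (day 5 against day 1), and the share of called genes that were higher moved from 24.5% to 92.4%. Siglecf was then 4.69 log2 up (edgeR adjusted p = 0.00252) and Cd33 at −1.24 log2 (edgeR adjusted p = 0.0362), so both kept their direction relative to day 1. Siglece depended on it more. Its levels were 226, 217, 96.1 and 215 CPM on days 1, 3, 5 and 7 in the CD45+ libraries and 168, 162 and 167 CPM in the pool, flat there. The fit gave −1.41 log2 on day 5 (SE 0.45, edgeR adjusted p = 0.0645), and −0.45 log2 with total scaling.

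The rise of Siglecf was present within the neutrophil clusters of the heart pool as well as between them. In the heart pool, the cluster led by Tnf, Icam1 and Ccrl2 held 97.7, 249 and 331 CPM on days 1, 3 and 5 (37, 804 and 153 cells), and the cluster led by Retnlg and S100a9 held 15.8, 76.2 and 89.7 CPM (217, 189 and 71 cells). Levels were higher in the first cluster on each day. In the CD45+ libraries 213 day 1 neutrophils lay in the Ngp-led cluster and 3 in the G0s2-led cluster, which held nearly all later ones. Day and cluster could not be told apart there. With each cell thinned to 1000 UMIs, the share of neutrophils with a Siglecf UMI was 0.463%, 8.89%, 25.0% and 21.4% in the CD45+ libraries and 2.88%, 16.2% and 17.5% in the pool, against 0.463%, 18.5%, 37.5% and 50.0%, and 6.69%, 46.9% and 41.5%, before thinning.

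Eosinophils, the usual source of Siglecf, were checked through 8 of their markers. Those genes summed to 0 to 10.2 CPM in the CD45+ neutrophils, 3.34 to 10.1 CPM in the pool and 8.70 to 15.3 CPM in the blood and heart pool. In the last, nearly all of the sum was Ear2 (5.80 to 10.0 CPM) and Ccr3 (2.68 to 8.30 CPM). Ear2 also led a monocyte cluster of that pool, so it is not particular to eosinophils there. Epx, Prg3 and Ear1, the granule peroxidase, a granule protein and a ribonuclease, were at 0 in every neutrophil sum. The 57 CD45+ neutrophils with a Siglecf UMI held 0 eosinophil UMIs, beside 8 UMIs in 3 of the 369 cells without (5.96 CPM). In the heart pool the eosinophil markers stood at 9.23 CPM in neutrophils with a Siglecf UMI and 8.07 CPM in those without, and in the blood and heart pool at 19.1 and 11.4 CPM. The shares of cells with an eosinophil UMI were 2.60% and 2.57% in the heart pool and 4.95% and 3.73% in the blood and heart pool. No direction is read from the few CD45+ UMIs, and the part of these markers in the Siglecf level was not tested. Macrophage markers rose in the same CD45+ neutrophil sums, at 893, 2942 and 6313 CPM on days 1, 3 and 5, but not in the pool, at 2079, 1903 and 1849 CPM. Siglecf itself was at most 2.97 CPM in the macrophages of both.

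The remaining members were sparse in neutrophils. Siglecg, better known from B cells, had 20.5, 28.1 and 12.3 CPM in the heart pool and 0 to 20.5 CPM in the CD45+ libraries, where it rested on at most 3 UMIs per library. Its day 5 value was −1.34 log2 (edgeR adjusted p = 0.327). Cd22 had 0 UMIs in all 426 CD45+ neutrophils, which allows a share of cells with a UMI of up to 0.704%, and 3 in 1471 neutrophils of the pool. Siglech and Siglec1 had at most 2 UMIs in a neutrophil sum of either experiment.

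The other genes that build and read sialic acid were followed in neutrophils by the lists of the same pathway, beside the 6.94% of all genes called on day 5. From day 1 to day 5, none was called of 11 tested signalling partners, 6 ligands and carriers and 3 genes of synthesis and transport. Of 6 sialyltransferases 1 was called. That one was St3gal6, which adds sialic acid in the linkage used for selectin ligands. It stood at 386, 142 and 134 CPM on days 1, 3 and 5 in the CD45+ libraries and at 239, 106 and 81.4 CPM in the pool, a fall by 2.52 log2 (SE 0.41, edgeR adjusted p = 0.00237). Of 8 tested interferon-induced genes 1 fell, Oasl1 (−2.70 log2, edgeR adjusted p = 0.0211). The list medians were −0.668, −0.706, 0.361, −0.647 and −1.71 log2 in that order, beside −0.03 for all genes.

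In monocytes/macrophages a member of the B cell lineage rose. Cd22, the inhibitory coreceptor of B cells that binds α2,6-linked sialic acid, was counted 0 times in the CD45+ monocytes/macrophages of day 1, 9 times on day 3 (1.25 CPM), 49 times on day 5 (7.39 CPM, 5.47 to 9.77) and 52 times on day 7 (8.09 CPM). At steady state it was counted 4 times (1.03 CPM). In the heart pool it was counted 8, 144 and 443 times (1.53, 4.19 and 11.3 CPM). Both experiments gave the same order of days, and day 5 lay above the intervals of day 1 in each. The share of pool cells with a Cd22 UMI was 2.24%, 10.5% and 23.1%, beside 0.204% in pool neutrophils, at medians of 28381.5 and 3900 UMIs. Thinned to 1000 UMIs those shares were 0.897%, 0.287% and 1.32%, near the level of 1 UMI, and no order is read from them.

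**Figure D3:**
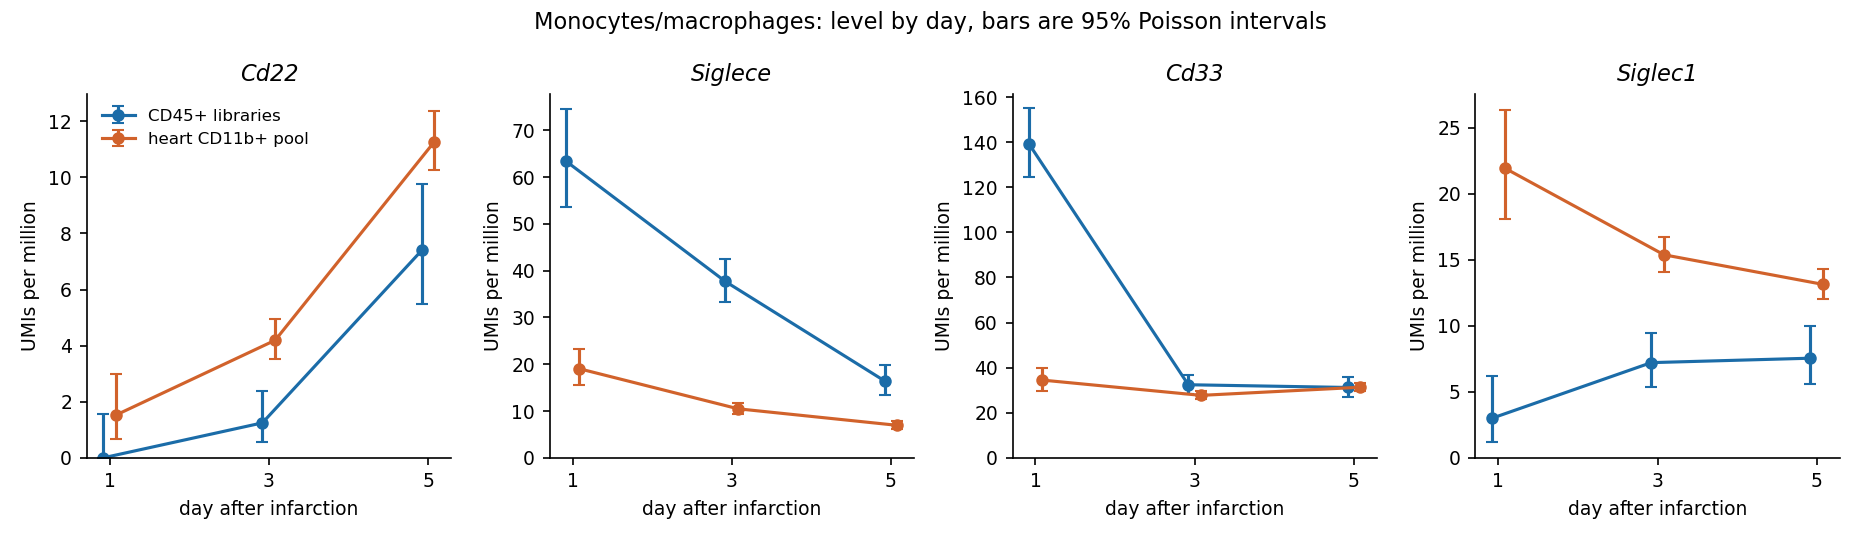
Cd22, Siglece, Cd33 and Siglec1 in monocytes/macrophages of the CD45+ libraries and of the heart CD11b+ pool, as CPM (vertical axis) by day after infarction (horizontal axis), with 95% Poisson intervals as bars. Of the 3 days plotted, day 5 has the highest Cd22 in both experiments (7.39 and 11.3) and the lowest Siglece (16.4 and 6.94).

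Cd22 rose by 3.20 log2 from day 1 to day 5 (SE 0.62, edgeR adjusted p = 0.0334), upward in each of the 2 experiments, and stood at 1.41 log2 by day 3 (edgeR adjusted p = 0.344). The call was lost without the CD45+ day 5 sum (2.96 log2, edgeR adjusted p = 0.0671), without the pool day 5 sum (4.30 log2, edgeR adjusted p = 0.0588) and without the experiment block (3.17 log2, edgeR adjusted p = 0.291). Within clusters, the Ms4a7- and Spp1-led cluster of the CD45+ libraries held 2.25, 9.52 and 8.80 CPM on days 3, 5 and 7. The Plac8- and Chil3-led cluster held 0.82, 0 and 4.32 CPM on the same days.

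Since B cells are the main source of Cd22, their own transcripts were set beside it. Cd79a, the B cell receptor component, was counted 0, 7 and 3 times in the pool's monocytes/macrophages on days 1, 3 and 5, while Cd22 was counted 8, 144 and 443 times. That is 20.6 and 148 Cd22 UMIs per Cd79a UMI on days 3 and 5, against 0.0387 to 0.08 in the B cells of the CD45+ libraries. In the CD45+ monocytes/macrophages the ratio was 1.80 on day 3 and 1.07 on day 5, but 0.0657 on day 7, where 792 Cd79a UMIs were counted beside 52 of Cd22, close to the B cell ratio. Markers of B cells summed to 4.71, 6.10, 27.4 and 338 CPM in the CD45+ macrophages on days 1, 3, 5 and 7, and to 7.05, 20.3 and 25.9 CPM in the pool. Heart pool macrophages with a Cd22 UMI held 23.0 CPM of them and those without held 21.9 CPM. In the CD45+ monocytes/macrophages, day 7 included, the values were 204.7 CPM with a Cd22 UMI and 89.8 CPM without, and in the blood and heart pool 185.6 and 157.6 CPM. B cell transcripts thus moved with Cd22 most in the CD45+ libraries, and their part in its level there was not tested.

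Siglece fell in monocytes/macrophages. It stood at 65.2 CPM at steady state (252 UMIs), 63.4 on day 1 (148 UMIs), 37.7 on day 3 (272 UMIs), 16.4 on day 5 (109 UMIs) and 23.4 on day 7 (150 UMIs) in the CD45+ libraries. In the heart pool it stood at 19.1, 10.5 and 6.94 CPM (100, 360 and 273 UMIs). Days 1, 3 and 5 did not overlap within either experiment. The change from day 1 to day 5 was a fall by 1.93 log2 (SE 0.24, edgeR adjusted p = 0.0118), and that to day 3 was −1.03 log2 (edgeR adjusted p = 0.109). Without the experiment block the day 5 call was lost (−2.13 log2, edgeR adjusted p = 0.502). Cd33 stood at 77.8, 139, 32.4, 31.2 and 53.7 CPM from steady state to day 7 and at 34.5, 27.7 and 31.3 CPM in the pool, so its day 1 value was high in the CD45+ library alone. Its day 5 value was −1.48 log2 (SE 0.52, edgeR adjusted p = 0.115), and −2.37 log2 without the pool day 1 sum (edgeR adjusted p = 2.32e-12). Both genes are higher in neutrophils, and neutrophil markers summed to 18853 CPM in the CD45+ monocytes/macrophages of day 1, against 158 to 1722 CPM on the other days, and to 2059, 719 and 630 CPM in the pool. Apart from the sums described next, the part of that signal in both changes was not tested.

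That day 1 sum came almost entirely from 1 cluster of 234 cells, led by Saa3 and Arg1, which was named by supporting markers and by none of its leading genes. Without the clusters named in that way the library kept 12 monocytes/macrophages with 1 Siglece UMI (13.3 CPM) and 22 of Cd33 (293 CPM). Neutrophil markers still summed to 5724 CPM in those 12 cells. On 1 UMI neither a fall of Siglece to day 5 (16.2 CPM) nor its absence can be read there. The pool gave 18.0, 10.6 and 6.90 CPM. A fit on those sums gave −1.42 log2 for Siglece (edgeR adjusted p = 0.000151), −1.09 for Cd33 (edgeR adjusted p = 0.00123) and 2.60 for Cd22 (edgeR adjusted p = 8.38e-05), with the same 2 members called as before and Cd33 besides. In monocytes/macrophages 6 members passed the low-count filter. In the main fit 2 were called on day 5, where 10.6% of 10603 genes were, 0 on day 3, where 0.858% were (1871 genes at an unadjusted p under 0.05, 1 member by DESeq2), and 0 between days 3 and 5, where 0.0377% were (836 genes at an unadjusted p under 0.05, 0 members by DESeq2).

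**Figure D4:**
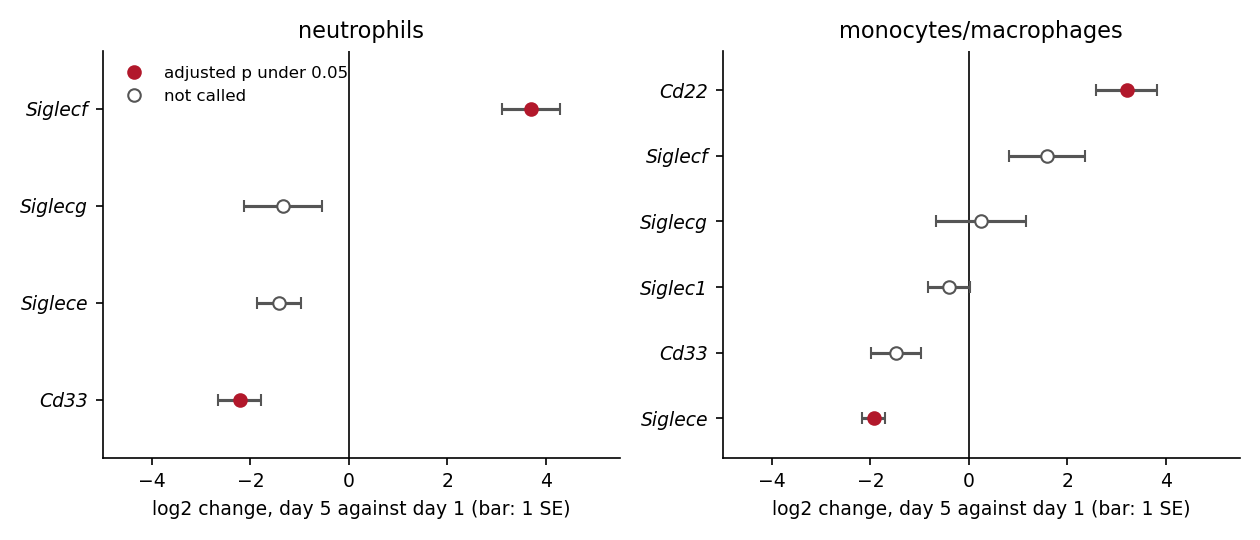
Fitted log2 change from day 1 to day 5 (horizontal axis, bars are 1 SE) of the members tested in neutrophils (left) and monocytes/macrophages (right). Filled points passed an edgeR adjusted p of 0.05: Siglecf (3.70) and Cd33 (−2.22) on the left, Cd22 (3.20) and Siglece (−1.93) on the right.

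Siglec1, the macrophage adhesion receptor sialoadhesin, went opposite ways in the experiments. It stood at 13.7 CPM at steady state, 3.00 on day 1 and 7.21, 7.54 and 6.85 CPM on days 3, 5 and 7 in the CD45+ libraries, and at 21.9, 15.4 and 13.1 CPM in the pool. The fit gave −0.41 log2 for day 5 (SE 0.43, edgeR adjusted p = 0.550), and 0.95 log2 without the pool day 1 sum. Siglecf in macrophages was 0.953, 2.97 and 2.34 CPM in the pool and its day 5 value was 1.58 log2 (edgeR adjusted p = 0.213). Siglecg was at most 6.85 CPM, on day 7 of the CD45+ libraries, with 44 UMIs beside 792 of Cd79a. That is 0.0556 Siglecg UMIs per Cd79a UMI, against 0.0796 in the B cells of the same library. The part of B cell transcripts in this level was not tested. Siglech was counted 17 times at steady state (4.40 CPM), 5 times on day 7 and at most 1 time in any other sum of heart macrophages.

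The pathway lists in macrophages on day 5 are read against the 10.6% of all genes called there. Of 12 signalling partners none was called, of 6 tested genes of synthesis and transport 1 was higher, of 10 sialyltransferases 2 were lower, of 8 ligands and carriers 1 was higher and 2 were lower, and of 10 interferon-induced genes 1 was lower. The higher gene of the second list was Npl, the lyase that breaks down free sialic acid, at 6.00, 10.4 and 41.5 CPM in the CD45+ libraries and 6.86, 20.6 and 35.2 CPM in the pool (2.36 log2, edgeR adjusted p = 0.0201). The lower sialyltransferases were St3gal5 (−1.50 log2) and St3gal4 (edgeR adjusted p = 0.0311). Vcam1 was 2.14 log2 higher, and Cd24a (−2.35 log2), Cd44 (−0.96 log2) and Oasl1 (−1.98 log2) were lower. The list medians were −0.129, 0.716, 0.308, −0.242 and −0.442 log2, beside −0.01 for all genes, and none of these lists had a call on day 3.

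Whether the day effects differed between the classes was tested directly. Of 6 members tested none passed, where 0.0197% of 10151 genes did for day 3 and 0.581% did for day 5 (1687 genes at an unadjusted p under 0.05, and 0 members by DESeq2). A difference in day effect between the classes was thus not shown for any of the 6. On simulated data this test recovered only 3% of genes whose day 5 effect differed by 2 log2. The simulated coefficient of variation was 30%, above the 22.8% of the data in this fit, so recovery in the data may be higher. It therefore does not show that the effects were alike.

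Siglecg and Cd22 marked B cells, and Siglecg marked dendritic cells as well. Siglecg, an inhibitory receptor of B cells, was counted 623 times in 963 B cells of day 7 (204 CPM), and 6, 15, 1 and 19 times in the 10, 13, 4 and 28 B cells of steady state and days 1, 3 and 5. Cd22 was counted 365 times on day 7 (119 CPM), and 4, 3, 2 and 12 times in the other libraries in that order. Siglecg in dendritic cells stood at 64.7, 19.7, 144, 146 and 159 CPM from steady state to day 7 (19, 5, 42, 40 and 88 UMIs) and at 70.7, 65.1 and 32.4 CPM in the pool. The class of the pool was less sharply dendritic, with 6 of 16 dendritic markers found in at least 20% of its 317 cells (11 of 16 in the CD45+ libraries) and 11.2 CPM of Siglec1. Its 72 cells with a Siglecg UMI held 2399 CPM of dendritic markers, and the other 245 held 570.2 CPM. On days 3 and 5 the dendritic cells of the CD45+ libraries held 0 Cd79a UMIs beside 42 and 40 of Siglecg, and on day 7 they held 83. Cd22 in the same cells was 0 in the libraries before day 7, with 8 UMIs then.

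Only days 5 and 7 had 30 dendritic cells (32 and 50), and 3 of 7 members were called in them against monocytes/macrophages, where 11.8% of 8641 genes were. Siglecg was 5.32 log2 higher (SE 0.47, edgeR adjusted p = 3.3e-09) and kept its call without any 1 sum. Siglech was 4.34 log2 higher (SE 1.26, edgeR adjusted p = 0.0215) on 2 and 6 UMIs, and lost the call without either dendritic sum, without the library block (edgeR adjusted p = 0.341) and with DESeq2 (adjusted p = 0.601). Siglecf was 2.80 log2 higher (SE 0.84, edgeR adjusted p = 0.0244) on 1 and 7 UMIs, and lost it without the library block (edgeR adjusted p = 0.259), without the day 7 dendritic sum (1.06 log2, edgeR adjusted p = 0.926) or the day 7 macrophage sum (edgeR adjusted p = 0.889).

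For B cells a second fit took sums of at least 10 cells, a limit chosen after the cell numbers were seen. Against monocytes/macrophages, 4 of 5 tested members were called, where 40.5% of 5198 genes were. Siglecg (6.39 log2, SE 0.50) and Cd22 (4.42 log2, SE 0.56, edgeR adjusted p = 9.38e-07) were higher, and Cd33 (−2.96 log2, SE 0.55) and Siglece (−3.44 log2, SE 0.71, edgeR adjusted p = 0.000344) were lower. Against dendritic cells 3 were called, where 30.0% of genes were. Cd22 was 4.39 log2 higher in B cells (SE 0.69, edgeR adjusted p = 3.81e-05). Siglece was lower (−3.16 log2, edgeR adjusted p = 0.00234), as was Siglecf (−2.85 log2, edgeR adjusted p = 0.0146), a call that was lost with DESeq2 (adjusted p = 0.262), without the library block (edgeR adjusted p = 0.209) and without the day 7 B cells or dendritic cells (edgeR adjusted p = 0.301 and 0.0651). Siglecg did not pass between B cells and dendritic cells (0.80 log2, SE 0.47, edgeR adjusted p = 0.203). Both Siglece calls were lost without the day 7 B cells (−2.08 log2, edgeR adjusted p = 0.136 against macrophages).

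Siglech, the plasmacytoid dendritic cell receptor, had 7, 34 and 96 UMIs in the 1, 3 and 6 plasmacytoid cells of days 3, 5 and 7, that is 137 UMIs in 10 cells. Conventional dendritic cells held 0, 1, 1, 2 and 6 UMIs of it from steady state to day 7, and 1, 3 and 5 in the pool. The CD45+ B cells held 4 UMIs in 1018 cells.

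In the blood and heart pool neutrophils again lay above monocytes/macrophages for Cd33 and Siglece. Cd33 ran from 630 to 1068 CPM in the neutrophils of the 7 hashtags and from 55.5 to 115 CPM in the monocytes/macrophages, without overlap. Siglece ran from 256 to 384 CPM and from 33.4 to 58.0 CPM. Cd22 ran from 0.484 to 7.42 CPM in monocytes/macrophages. It lay between 13.2 and 26.2 CPM in the cluster led by Ear2, Ace and Pou2f2, genes of nonclassical monocytes, and between 0 and 1.41 CPM in the cluster led by Chil3, Ccr2 and Ly6c2, genes of classical monocytes. A macrophage cluster of 107 cells also held neutrophil markers, and without it Cd33 ran from 39.0 to 109 CPM and Siglece from 32.6 to 54.8 CPM.

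This pool also held an antibody against SiglecF, so antibody counts and mRNA were read in the same cells. Siglecf in neutrophils stood at 15.7, 23.6, 21.1, 23.3, 20.6, 28.8 and 143 CPM in hashtags 1 to 7 (56, 106, 90, 87, 72, 66 and 181 UMIs). The median antibody count per neutrophil was 7, 8, 8, 8, 8, 8 and 16.5 UMIs, and its 90th percentile was 14 in hashtags 1 to 5, 15 in hashtag 6 and 82.7 in hashtag 7. Hashtag 7 was the highest by both measures, and the other 6 lay close together. Over all hashtags the median antibody count was 7 UMIs in monocytes/macrophages, T cells and B cells and 8 in dendritic cells. The neutrophil medians of hashtags 1 to 6 lay at that same level. Within each hashtag the neutrophils with a Siglecf UMI had the higher median antibody count. It was 12 against 7 in hashtag 1, 9 against 8 in hashtag 2, 10 against 8 in hashtag 6 and 43 against 12 in hashtag 7. The neutrophils above their hashtag's 90th antibody percentile held 49.7 to 85.8 Siglecf CPM in hashtags 1 to 6 and 299.7 in hashtag 7, against 12.5 to 23.5 and 125 at or below it. All antibodies together had medians of 291 to 387 UMIs in the former and 277 to 292 in the latter. The eosinophil markers include Ear2, which also led a monocyte cluster of this pool. They summed to 26.3 CPM in the neutrophils above the percentile and 10.8 CPM in the others over all hashtags. They stood at 91.5 against 7.68 CPM in hashtag 6 and 41.4 against 12.0 CPM in hashtag 3, but at 0 against 15.8 CPM in hashtag 7. The part of either in this difference was not tested. Cell numbers behind these values were 404 neutrophils for hashtag 7 and 639 to 1137 for the others.

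**Figure D5:**
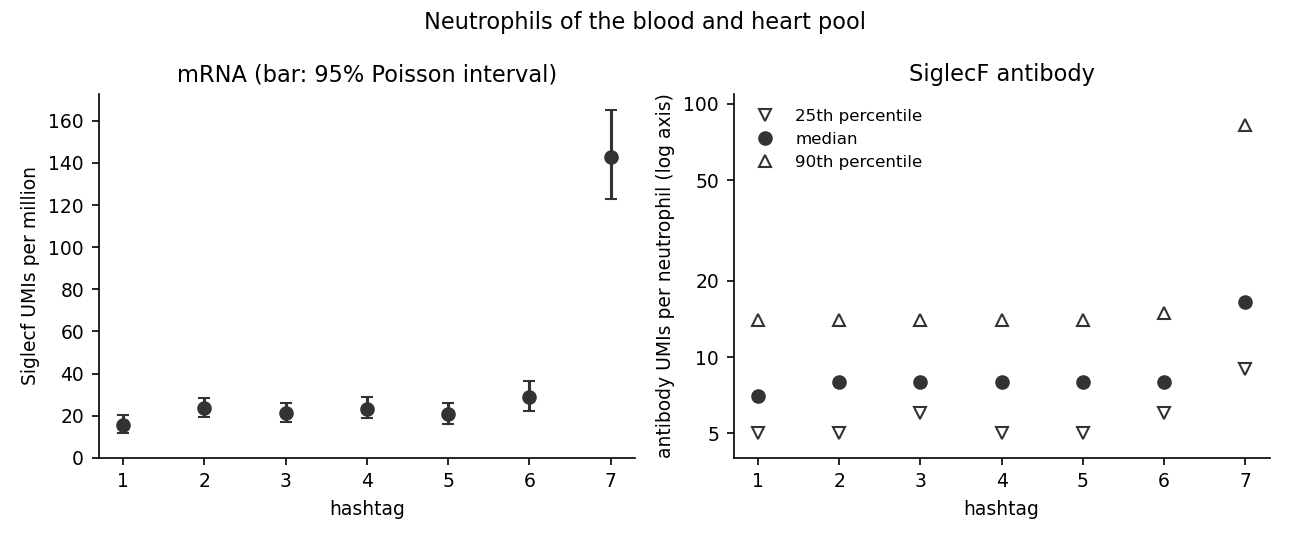
Siglecf mRNA (left, CPM, bars are 95% Poisson intervals) and SiglecF antibody UMIs per cell (right, lower quartile, median and 90th percentile, log axis) in neutrophils of the blood and heart pool, by hashtag. Hashtag 7 has 143 CPM and a 90th percentile of 82.7, and hashtags 1 to 6 have 15.7 to 28.8 and 14 to 15.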

How the data were processed

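The deposited matrices hold raw UMI counts per gene and cell barcode, and the pools also hold antibody counts. Cell Ranger made them, per the submitters' processing notes (the pools' headers give version 3.0.2). The CD45+ libraries used chemistry version 2 and the heart pool version 3, per the labels' protocols. The lower limit was 200 genes per barcode and the upper limit 10% mitochondrial UMIs. Hashtags were called by a 2-part Gaussian mixture, and barcodes with several were removed (6.28% in the heart pool, 12.5% in the mixed pool). Scrublet, run per CD45+ library, marked 2 to 6 barcodes each, removed too, so doublets of 1 hashtag or library may remain. CD45+ libraries shared at most 2 barcodes with each other and the pools 28.

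Each experiment was clustered in scanpy 1.11.5 (2000 variable genes, 30 components, 15 neighbours, Leiden resolution 0.5, seed 0) and clusters were named from fixed marker lists. A cluster's class was the one best represented in its 10 leading genes, given 3 markers in at least 20% of its cells at 1.5 times the level elsewhere. A second step, for clusters alike in profile (correlation of at least 0.85) or without leading markers, was set after the clusters were seen; it named 3 of them by supporting markers alone. A mixed CD45+ cluster of 157 cells entered no class. The members and gene lists were chosen with earlier results of these data known.

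UMIs were summed per class and day, with at least 30 cells, and fitted in edgeR 4.0.16 (R 4.3.3; filterByExpr, TMM, glmQLFit, two-sided glmQLFTest, Benjamini-Hochberg over all genes of a contrast, threshold 0.05) with experiment or library as a block. Steady state and day 7 have 1 library and enter no day test. The experiments were kept as the block by design. Deviations of same-day sums from the experiment means correlated at r = 0.498, 0.0514 and 0.424 in neutrophils and 0.663, 0.303 and 0.793 in monocytes/macrophages (days 1, 3 and 5). On simulated data with 200 genes changed by 2 log2 the fit recovered 49%, 35.5% and 33% in neutrophils (day 3 against 1, 5 against 1, 5 against 3), 67.5%, 59.5% and 66% in monocytes/macrophages and 93% between these classes. In the CD45+ libraries it recovered 56% for neutrophils and 38.5% for dendritic cells, each against monocytes/macrophages. For the difference of day effects it recovered 3%, 3% and 4.5% in the same order of days. The simulated coefficient of variation was 30% throughout. The data gave 30.9% in neutrophils, 19.8% in monocytes/macrophages and 26.6% between these classes. They gave 24.2% in the CD45+ class fit and 22.8% for the difference of day effects. Intervals are exact Poisson or binomial at 95%. Named were all members, the called genes of the pathway lists (up to 4 a list, largest first) and the 3 genes nearest to each member. Alternatives were DESeq2 1.42.0, scaling to totals, no filter, no block, each sum left out, another resolution, members kept in clustering, a 5% mitochondrial limit and thinned cells.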

Additional observations from a re-analysis of the deposited data

Results flagged for a closer look

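In the blood and heart pool, whose hashtags entered no comparison, Siglecf in the neutrophils of hashtag 7 reached 142.9 CPM (95% Poisson interval 122.9 to 165.3), against 15.7 to 28.8 CPM in hashtags 1 to 6. Within the neutrophil cluster led by Cxcl2 and Il1r2 it was 207.5 CPM in 247 cells of hashtag 7 and 29.4 CPM in 264 cells of hashtag 6. The eosinophil markers summed to 14.2 CPM in the neutrophils of hashtag 7 and to 8.70 to 15.3 CPM in the others. In hashtag 7 Ear2 and Ccr3 stood at 7.11 CPM each. Which condition hashtag 7 holds is not known here.

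Siglech stood at 1903 CPM in the 10 plasmacytoid dendritic cells of the CD45+ libraries (137 UMIs, all 10 cells with at least 1), a class too small for the fits. By library it was 1047 CPM on day 3, 2140 on day 5 and 1942 on day 7.

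Siglecf was also counted in the mast cells and basophils of the blood and heart pool, a class that no comparison used, with 13 UMIs in 42 cells (75.4 CPM). Their median SiglecF antibody count was 7.5 UMIs, within the 7 to 8 UMIs of macrophages.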

How the results depend on the processing

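The highest class of each member was the same in 7 of 7 with another resolution, with a 5% mitochondrial limit or without mitochondrial and ribosomal protein genes, in 6 of 7 by share of cells (Siglecg moved to dendritic cells) and in 5 of 7 with cells thinned. Of 245 levels, 235 stayed within their counting interval at resolution 1.0 and 196 without those genes in the total. Without the replicate block, which ignores the gap between the experiments, 0 members were called in neutrophils on day 3 and on day 5 (from 1 and 2), 0 in monocytes/macrophages on day 5 (from 2) and 1 in dendritic cells against macrophages (from 3). With DESeq2 1 member was called in macrophages on day 3 (from 0). Without clusters named by supporting markers alone (sums of at least 10 cells) 1 was called there and 2 between days 3 and 5, and 5 in macrophages against neutrophils, where no filter gave 6 (from 2). Leaving out each sum in turn gave 1 to 3 members in neutrophils on day 3 and 1 to 3 on day 5, in macrophages 0 to 3, 1 to 3 and 0 to 2 (day 3, day 5, day 5 against day 3), 3 to 5 in macrophages against neutrophils, 3 to 4 in neutrophils against macrophages of the CD45+ libraries, 1 to 5 in dendritic cells, and 1 to 4 in B against dendritic cells. The cause was not tested. Siglecf then ranged from 2.85 to 6.43 log2 (day 5 against day 1) and from −0.24 to 1.33 (day 5 against day 3, reversed without CD45+ day 5), and Siglec1 from −0.84 to 0.95 log2, reversed without pool day 1 or pool day 5. Counts of all genes called moved more: 45 to 963 in neutrophils and 391 to 3754 in macrophages on day 5, 50 to 708 and 10 to 2871 on day 3, and 0 to 1488 in macrophages from day 3 to 5. In the other settings they ran from 0 without the block to 1190 in neutrophils and 2459 in macrophages on day 5, and to 455 and 1066 on day 3. Depth limits Siglecf on day 1 of the CD45+ libraries (1 UMI), Cd22 in CD45+ macrophages of day 1 (0 UMIs) and all members in steady-state neutrophils (7 cells).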

Other observations

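The other mouse Siglec genes measured were low. Mag (chromosome 7, 30899176 to 30914873), the myelin-associated member, ran from 0.40 to 5.95 CPM in monocytes/macrophages, highest at steady state. On days 1, 3 and 5 it stood there at 0.43, 3.05 and 5.58 CPM in the CD45+ libraries (1, 22 and 37 UMIs). In the heart pool it stood at 1.33, 2.30 and 3.84 CPM (7, 79 and 151 UMIs). The CD45+ NK cells held 11.9 CPM of it, on 5 UMIs. Siglec15 had at most 6 UMIs in any sum of monocytes/macrophages.

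Over 21 sums of at least 30 cells from the CD45+ libraries and the heart pool, the genes whose levels were ordered most like each member were found by Spearman's rho of log2(CPM + 1). The sums share libraries, depth and class, so the values are descriptions across sums. Siglecf came closest to Zfp263 (0.891), Cd300a (0.880) and Ogfrl1 (0.878), and Siglece to Ebi3 (0.943), Marcksl1 (0.939) and Il13ra1 (0.905). Cd33 came closest to Cdc42ep2 (0.936), Ltf (0.922) and Ehd1 (0.920). Cd22 came closest to the B cell genes Cd79b (0.895) and Ms4a1 (0.854) and to Imp3 (0.845). Only 1 of the 21 sums was of B cells, so this order was mostly one among sums of other classes. The part of B cell transcripts in it was not tested. Siglecg came closest to Satb1 (0.871), Birc2 (0.805) and Stat4 (0.787). Siglec1 followed Maf (0.920), Slc35f6 (0.907) and Ap1b1 (0.905), and Siglech followed H2-Eb1 (0.730), Gdi2 (0.716) and H2-Ab1 (0.715), with 9 of 21 sums above 0. In the 6 neutrophil sums alone 166 genes had the same order as Siglecf, so the 3 named by rank, Ptpn18, Mrpl30 and Hspe1, do not stand out among them.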
